A study of Mus musculus with 27 samples.

Results

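The 10 genes described here encode the contractile machinery of smooth muscle and its close striated relatives: the actins Acta1, Acta2, Actg2 and Actc1, the actin-binding proteins Tagln, Cnn1 and Tpm1, and the myosin side with Myh11, Myl9 and Mylk. They were chosen by symbol, matched to Ensembl IDs, and are 10 of the 48440 genes in the count table. All 10 passed the filter on low counts. In smooth muscle, myosin built on the Myh11 heavy chain pulls on actin filaments when the kinase encoded by Mylk phosphorylates the regulatory light chain encoded by Myl9. Fibroblasts switch part of this programme on when they become contractile myofibroblasts in wound repair and lung fibrosis, with smooth muscle actin (Acta2) as the usual marker. Many of the genes are driven by serum response factor (SRF) and its actin-sensing cofactors, the myocardin-related factors, at a DNA element called the CArG box.

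The cells were lung fibroblasts in primary culture from C57BL/6 mice with no engineered allele (wild type), kept in low oxygen, and total RNA was sequenced in 9 groups of 3 libraries. In 1 group (IR) cells received 10 Gy of X-rays and were harvested 10 d later, serving as the senescent positive control. The other cells had 3 uM KU60019 for 15 d or the vehicle DMSO for 15 d, and likewise KU60019 or DMSO for 35 d. In 4 more groups the KU60019 or the DMSO of either schedule was removed and cells were harvested 20 d later. KU60019 blocks ATM, the kinase that signals DNA breaks. Library names end in 1 of 3 numbers shared by all groups (S1_705, S2_715 and S3_716 in DMSO 15 d), and values of a group are given in that order. What the numbers stand for is not stated, so animals, cultures or technical repeats are all possible and the p-values cover the spread between these libraries alone.

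Libraries held between 20659745 and 50859493 counts (median 31265114). Levels of a gene are given in CPM, counts scaled to the library size times its TMM factor, and levels of different genes are set side by side in the deposited TPM, which are per length. The TMM factors were 0.694 in S19_705, 0.918 in S20_715 and 0.966 in S21_716, the DMSO 35 d then removed libraries, and between 0.879 and 1.117 elsewhere. Ribosomal RNA took 2.91% of the counts of S19_705, 1.60% of S27_716, 0.844% of S7_705 and 0.431% of S20_715, and at most 0.169% elsewhere. All 10 fibroblast markers had counts in every library, with summed levels from 9377.5 to 51995.2 CPM. Myocd, the myocardin gene of differentiated smooth muscle, did not exceed 0.209 CPM in any library. Of 27 markers of striated muscle, 15 stayed under 1 CPM in every library and Myf5 had no count, and their summed level lay between 24.8 and 132 CPM. Of 9 mural cell markers Higd1b stayed at or under 0.0410 CPM, while Pdgfrb, which fibroblasts share, lay between 259.9 and 706 CPM, Cox4i2 between 21.4 and 87.6 CPM, and Mcam and Kcnj8 reached 86.9 and 74.2 CPM. Of 11 macrophage markers Ptprc stayed at or under 0.221 CPM, while Lyz2 reached 72.7 CPM and Cd68 27.6 CPM.

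All 10 genes are protein coding (positions on GRCm38). Acta1 (ENSMUSG00000031972, skeletal muscle alpha-actin) lies on chromosome 8 from 123891769 to 123894751, Acta2 (ENSMUSG00000035783) on chromosome 19 from 34241090 to 34255590, Actg2 (ENSMUSG00000059430, smooth muscle gamma-actin) on chromosome 6 from 83512905 to 83536265 and Actc1 (ENSMUSG00000068614, cardiac alpha-actin) on chromosome 2 from 114047282 to 114053548, all on the minus strand. Tagln (ENSMUSG00000032085, transgelin) lies on chromosome 9 from 45929619 to 45936058 and Tpm1 (ENSMUSG00000032366, alpha-tropomyosin) on the same chromosome from 67022590 to 67049406, both on the minus strand, and Cnn1 (ENSMUSG00000001349, calponin) on its plus strand from 22099216 to 22109630. Myh11 (ENSMUSG00000018830) lies on chromosome 16 from 14194535 to 14291372 on the minus strand and Mylk (ENSMUSG00000022836) on its plus strand from 34745210 to 35002420. Myl9 (ENSMUSG00000067818) lies on the plus strand of chromosome 2 from 156775420 to 156781658. No source used here gives the strand setting of the counting, and Tagln shares 1241 exon bases with the antisense gene Gm48529 in GENCODE M21, and 108 with Pcsk7 on the other strand. The counts used here give no level for Gm48529, and Pcsk7 lay between 16.9 and 30.3 CPM, so Tagln counts could include reads of Gm48529, and how many cannot be told. Mylk shares 548 exon bases with E130310I04Rik and 224 with Gm21691, both on the other strand. No level is given for either, so Mylk counts could include their reads too. Of the 50-base stretches of Tagln transcripts, 47.6% also occur, on either strand, in another annotated gene. The share was 4.14% for Mylk. For both, the other genes are the overlapping ones just named, so these shares restate the overlap. It was 2.02% for Acta1 (in Actb, Actg1 and pseudogenes), 0.391% for Myh11, 0.326% for Acta2 and 0 for the others.

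RefSeq promoters (GRCm38.p6, 250 bases before to 50 after the start site) were at hand for 7 of the 10 genes, Acta1, Acta2, Actc1, Cnn1, Mylk, Myl9 and Tpm1. The 4 that held a CArG box are shown, since this is the element through which SRF acts on such genes. Capitals mark matches to the CArG consensus or to a form with 1 G or C in its A/T core, read 5′ to 3′ on the strand of the gene. Both patterns read the same on either strand, and no match overlapped another.
Acta2 promoter, chr19:34255324-34255623, minus strand: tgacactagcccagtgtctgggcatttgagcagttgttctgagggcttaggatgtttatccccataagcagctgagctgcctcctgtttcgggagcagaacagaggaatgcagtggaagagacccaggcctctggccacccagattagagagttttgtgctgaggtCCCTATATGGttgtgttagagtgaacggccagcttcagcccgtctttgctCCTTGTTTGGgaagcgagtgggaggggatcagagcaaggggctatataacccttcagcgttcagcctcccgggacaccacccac
Acta1 promoter, chr8:123894726-123895025, minus strand: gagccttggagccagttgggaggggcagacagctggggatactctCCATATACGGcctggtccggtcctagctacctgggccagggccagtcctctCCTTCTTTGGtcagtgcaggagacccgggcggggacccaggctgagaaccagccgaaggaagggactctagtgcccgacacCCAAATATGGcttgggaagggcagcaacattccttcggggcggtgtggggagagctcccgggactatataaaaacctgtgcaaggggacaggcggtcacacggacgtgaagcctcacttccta
Actc1 promoter, chr2:114052826-114053125, minus strand: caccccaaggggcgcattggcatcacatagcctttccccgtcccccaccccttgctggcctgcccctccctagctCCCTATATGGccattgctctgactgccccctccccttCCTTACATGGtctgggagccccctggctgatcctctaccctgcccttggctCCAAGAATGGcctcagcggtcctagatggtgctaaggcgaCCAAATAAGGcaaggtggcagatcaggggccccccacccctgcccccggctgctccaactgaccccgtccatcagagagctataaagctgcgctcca
Myl9 promoter, chr2:156775214-156775513, plus strand: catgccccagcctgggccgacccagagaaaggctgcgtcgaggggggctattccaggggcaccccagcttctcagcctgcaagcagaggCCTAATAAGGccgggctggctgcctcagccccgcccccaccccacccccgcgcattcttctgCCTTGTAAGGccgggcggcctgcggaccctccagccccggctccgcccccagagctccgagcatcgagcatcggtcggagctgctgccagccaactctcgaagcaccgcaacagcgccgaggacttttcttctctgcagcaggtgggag
A perfect CArG box started 73 bases before the start site in Acta1, 47 before in Actc1 and 161 before in Myl9. The form with 1 G or C stood 84 and 34 bases before the start in Acta2, 205 and 154 in Acta1, 175, 138 and 87 in Actc1, and 99 in Myl9. Neither form was in the windows of Cnn1, Mylk and Tpm1. The Mylk window, chr16:34784700-34784999, lies inside the gene, whose annotated span begins at 34745210. The Actc1 window, chr2:114052826-114053125, also lies inside its gene, whose span on the minus strand runs from 114047282 to 114053548. Other start sites of Mylk and Actc1 were not searched. Among all 32851 RefSeq promoters of this length, 1.63% held a perfect box, 9.98% held either form and 0.822% held 2 or more boxes. The letters CATTCC, the TEAD factor element, were searched on both strands and were found in Acta1, Acta2, Mylk and Tpm1, and in 14.7% of all promoters. These matches describe the letters of the windows and say nothing of binding.

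The whole set took between 0.314% and 2.49% of a library's counts. The share was 1.96% to 2.49% in IR cells and 0.314% to 0.462% in KU60019 35 d cells, and the other 7 groups lay between 0.555% and 1.62%. Per length, in the irradiated cells, Acta2 averaged 6849.3 ± 762 TPM, Tagln 6366.0 ± 958 TPM, Myl9 2853.4 ± 476 TPM and Tpm1 2608.8 ± 241 TPM (SD, n = 3). There Actg2 averaged 849 ± 202 TPM, Cnn1 607 ± 109.9 TPM, Mylk 154 ± 16.6 TPM, Myh11 109 ± 17.8 TPM and Acta1 60.9 ± 29.9 TPM. Actc1 was close to absent, with 0 to 56 counts in a library and 0 counts in 1 KU60019 35 d library. In bulk RNA, fewer cells of a type and less RNA per cell cannot be told apart.

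The genes differed in how far they moved between groups. Acta1 had the widest span, with a 114-fold ratio between the means of its highest and lowest groups in CPM (74.1-fold in TPM). The ratio was 36.0 for Cnn1, 17.5 for Actg2, 11.8 for Myh11, 8.16 for Acta2, 7.57 for Actc1, 6.54 for Tagln, 5.71 for Myl9, 4.42 for Mylk and 3.10 for Tpm1. Some of these ratios depended on library S19_705: without it the ratio was 72.8 for Acta1, 22.6 for Cnn1, 11.8 for Actg2 and 7.92 for Acta2. KU60019 35 d was the lowest group for 8 of the genes, the exceptions being Actc1, lowest in KU60019 35 d then removed, and Mylk, lowest in DMSO 35 d then removed.

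The highest group fell into 4 kinds. Acta1, Acta2, Actg2 and Cnn1 were highest in CPM in DMSO 35 d then removed, and for Acta2 and Actg2 the highest group in TPM was IR. That rank of Acta2 and Actg2 in CPM rested on library S19_705: without it Acta2 averaged 5410.5 CPM in DMSO 35 d then removed and 6983.9 CPM in IR, and Actg2 624 CPM in DMSO 35 d then removed and 646 CPM in IR. Tagln, Myl9 and Tpm1 were highest in IR, Myh11 and Mylk in DMSO 15 d then removed, and Actc1 in KU60019 15 d. For Acta1 the ranges of DMSO 35 d then removed, KU60019 15 d and IR were apart from each other and in that order, and each pair of neighbours below IR overlapped. For Acta2 the order ran DMSO 35 d then removed and IR, then, apart from these, KU60019 15 d and DMSO 15 d then removed, then KU60019 15 d then removed, DMSO 35 d, DMSO 15 d and KU60019 35 d then removed, and last, apart from all, KU60019 35 d. Every neighbouring pair named together in that order overlapped. For Mylk, DMSO 15 d then removed stood apart from all groups at the top. DMSO 35 d then removed had the lowest mean, but its range lay inside the wide one of KU60019 15 d then removed (479, 183 and 258 CPM), which also took in that of KU60019 15 d. For Actc1 all 8 neighbouring pairs overlapped.

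**Figure D1:**
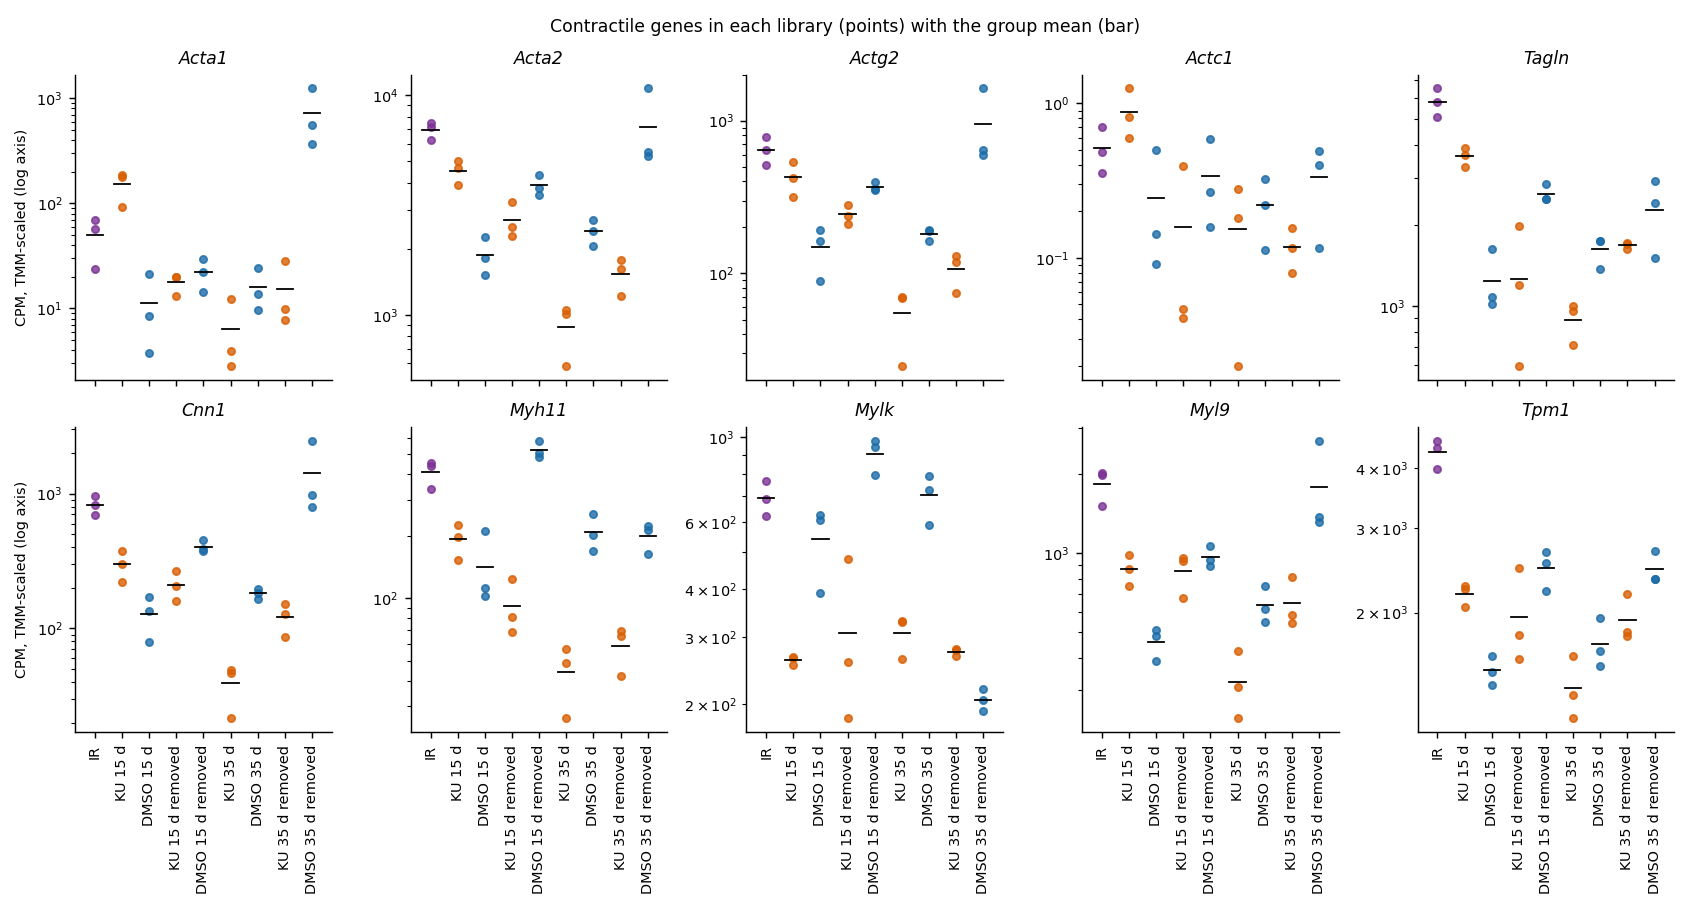
Level of each of the 10 genes (CPM, log axis) in each library of the 9 groups, with 1 point per library and a bar at the group mean (KU stands for KU60019). Most genes peak in IR or DMSO 35 d then removed and are lowest in KU60019 35 d, while Mylk is lowest in DMSO 35 d then removed. The KU60019 35 d library with 0 Actc1 counts is drawn at the foot of its axis.

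The first comparison asked what 15 d of ATM inhibition did. After 15 d the actins Acta1, Acta2 and Actg2, and Tagln, Cnn1, Myl9 and Tpm1 were higher with KU60019 and Mylk was lower: 7 of the 10 genes rose and 1 fell in edgeR's quasi-likelihood test at a Benjamini-Hochberg adjusted p below 0.05. Among all 18684 genes tested, 13.2% rose and 17.1% fell. The median log2 fold change was 1.25 over the 10 genes and -0.02 over all genes. The ranges of both groups were apart for 9 of the 10 genes, and the share of all genes with ranges apart was not counted.

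Acta2 stood at 3893.0, 5028.5 and 4677.8 CPM in KU60019 15 d cells, against 1519.5, 1808.1 and 2261.8 CPM in DMSO 15 d cells (log2 fold change 1.28 ± 0.26, adjusted p = 0.000665). Acta1, the skeletal muscle actin, reached 92.6, 185 and 179 CPM in KU60019 15 d cells, against 3.75, 8.53 and 21.5 CPM in DMSO 15 d cells (3.75 ± 0.68, adjusted p = 0.000279). All 3 inhibited libraries lay above all 3 DMSO libraries for both genes. Actg2, an actin of visceral smooth muscle, was at 318, 535 and 422 CPM in KU60019 15 d cells and 89.6, 164 and 192 CPM in DMSO 15 d cells (1.52 ± 0.37, adjusted p = 0.00382). Actc1 had a log2 fold change of 1.77 ± 0.68, adjusted p = 0.0548, from 19 to 56 counts a library in KU60019 15 d cells and 3 to 23 in DMSO 15 d cells.

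Of the actin-binding proteins, Tagln was at 3296.9, 3906.2 and 3676.0 CPM in KU60019 15 d cells and 1016.7, 1074.4 and 1626.4 CPM in DMSO 15 d cells (1.55 ± 0.30, adjusted p = 0.000464). Cnn1, which restrains actomyosin in smooth muscle, rose as well (1.22 ± 0.37, adjusted p = 0.0148), as did Tpm1, which lies along the actin filament (0.53 ± 0.16, adjusted p = 0.0144). The call of Cnn1 was lost without DMSO 15 d library S1_705 (0.96, adjusted p = 0.0932) or without KU60019 15 d library S5_715 (1.03, adjusted p = 0.0724), and that of Tpm1 without either of the same libraries (adjusted p = 0.0673 and 0.0517). Without S1_705, which also decided Myl9, 5 of the 8 calls were left. On TPM, where the median of all genes shifted by -0.18, Tpm1 was not called (0.30, adjusted p = 0.232).

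The myosin side was split. Myl9 was at 753, 989.9 and 872 CPM in KU60019 15 d cells and 390.0, 484 and 509 CPM in DMSO 15 d cells (0.92 ± 0.25, adjusted p = 0.00830), a call lost without DMSO 15 d library S1_705 (adjusted p = 0.0517) and with the trend over gene length removed (0.64, adjusted p = 0.0761). Mylk, the kinase that phosphorylates it, stood at 265, 264 and 253 CPM in KU60019 15 d cells, against 607, 389.9 and 627 CPM in DMSO 15 d cells (-1.05 ± 0.23, adjusted p = 0.00173). The 3 inhibited libraries lay close together and below all 3 DMSO libraries. Myh11 was at 154, 226 and 199 CPM in KU60019 15 d cells and 113, 103 and 211 CPM in DMSO 15 d cells, with overlapping ranges (0.44 ± 0.29, adjusted p = 0.265), and was called only without DMSO 15 d library S3_716 (0.83, adjusted p = 0.0442).

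Of 20 other smooth muscle cytoskeleton genes, 7 rose and 4 fell, among them Cald1, a caldesmon (0.75 ± 0.17), Actn1, an actin crosslinker (0.87 ± 0.21), and Filip1l (-1.16 ± 0.25). Of 11 cytoplasmic actin and nonmuscle myosin genes, 4 rose, such as Actg1 (0.94 ± 0.15), and 1, Myh10, fell (-1.40 ± 0.20). Of 12 genes for SRF and its regulators, 11 could be tested and 2 rose, Klf4 (1.67 ± 0.37) and Elk3 (0.40 ± 0.12). Of 12 myofibroblast matrix and TGF-beta response genes, 4 rose and 3 fell. Among those that rose, log2 fold changes were 2.92 ± 0.29 for Ccn2, a matricellular protein, 1.87 ± 0.14 for Tgfb1 and 4.75 ± 0.35 for the cytokine gene Il11. Means of Fn1 and Cthrc1 were lower, at 3378.5 and 11.4 CPM in KU60019 15 d and 8585.4 and 33.1 CPM in DMSO 15 d cells. The sums of this list overlapped, at 16724.9 to 19581.0 CPM in KU60019 15 d and 9915.3 to 18360.9 CPM in DMSO 15 d cells. Of 13 genes of RhoA signalling and light chain phosphorylation, 4 rose and 1 fell. The 10 fibroblast markers, of which 2 rose and 5 fell, summed to 9377.5 to 11358.5 CPM in KU60019 15 d cells and 28911.5 to 42080.6 CPM in DMSO 15 d cells. Epithelial markers (1 higher) summed to 13.5 to 17.7 CPM in KU60019 15 d cells and 2.11 to 4.91 CPM in DMSO 15 d cells. Mesothelial markers (2 higher, 1 lower) summed to 16.9 to 22.95 CPM in KU60019 15 d cells and 5.53 to 9.32 CPM in DMSO 15 d cells. Krt19 is in both lists and averaged 14.6 CPM in KU60019 15 d and 1.70 CPM in DMSO 15 d cells. The epithelial markers Epcam, Cdh1 and Krt8 did not exceed 0.1404 CPM in any library. Mitochondrial transcripts took 2.58% to 2.86% of the counts of KU60019 15 d libraries and 1.77% to 1.94% of those of DMSO 15 d libraries. Endothelial sums overlapped, at 130.1 to 183 CPM in KU60019 15 d cells and 139.9 to 227 CPM in DMSO 15 d cells, as did macrophage sums. Most of the endothelial sum was Eng, with means of 138.3 CPM in KU60019 15 d and 119.2 CPM in DMSO 15 d cells. Of the 10 endothelial markers 0 were called higher and 6 lower, with a median log2 fold change of -2.83. Pecam1 averaged 0.803 CPM in KU60019 15 d and 11.2 CPM in DMSO 15 d cells. Macrophage markers summed to 24.2 to 35.8 CPM in KU60019 15 d cells and 34.1 to 68.6 CPM in DMSO 15 d cells, with 1 of 11 higher and 6 lower, and Ptprc, Adgre1 and Itgam under 1 CPM in every library. Their part in the result was not tested.

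**Figure D2:**
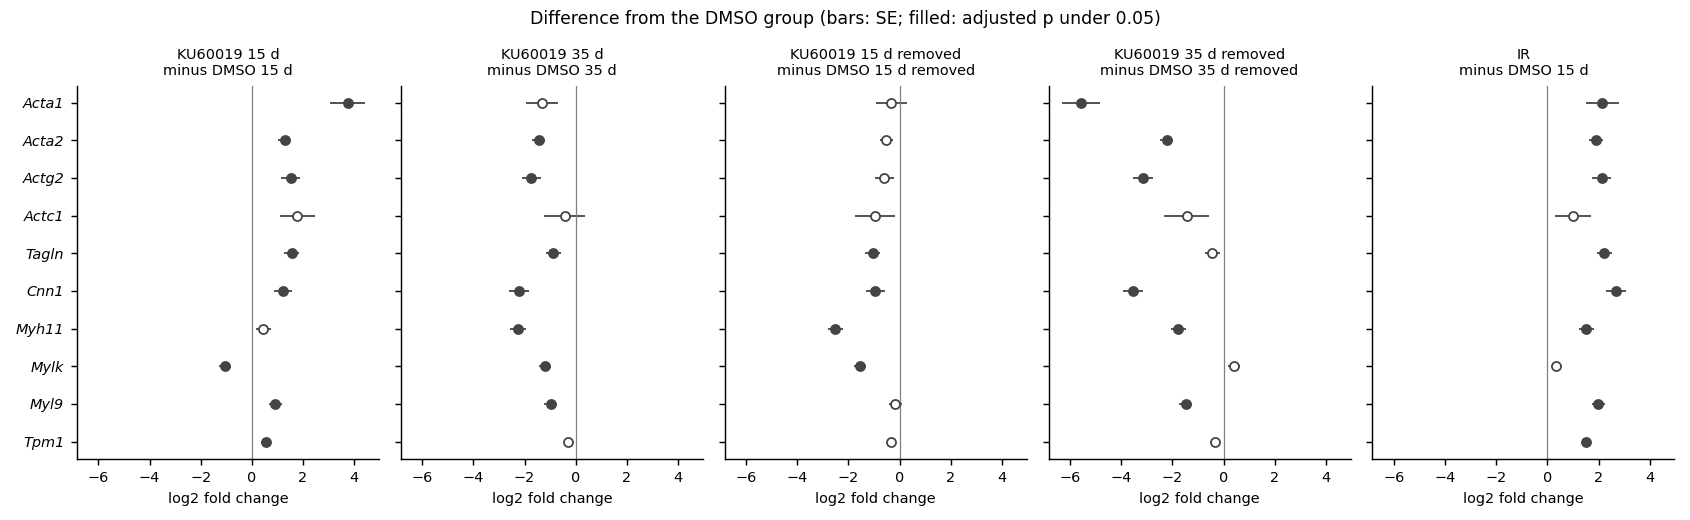
Log2 fold change of each of the 10 genes, with its approximate standard error (bars), for KU60019 against DMSO in the 4 schedules and for IR against DMSO 15 d, with filled points at an adjusted p below 0.05. Most lie above 0 for KU60019 against DMSO at 15 d and for IR, and below 0 for KU60019 against DMSO at 35 d and after removal.

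After 35 d the direction was the other way. No gene rose and 7 of 10 fell with KU60019, where 9.70% of all genes rose and 8.40% fell, and the median log2 fold change was -1.26 over the 10 genes and -0.01 over all genes. The 7 genes were apart in range, and the share of all genes apart was not counted.

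Myh11, the heavy chain of smooth muscle myosin, was at 26.3, 48.7 and 57.2 CPM in KU60019 35 d cells, against 171, 255 and 203 CPM in DMSO 35 d cells (-2.25 ± 0.30, adjusted p = 2.20e-05). Cnn1 was at 21.5, 46.8 and 49.4 CPM in KU60019 35 d cells and 184, 196 and 165 CPM in DMSO 35 d cells (-2.22 ± 0.38, adjusted p = 0.000284). These were the lowest fold changes of the set, and every inhibited library lay below every DMSO library. Acta2 stood at 584, 1005.1 and 1056.0 CPM in KU60019 35 d cells and 2705.6, 2420.4 and 2066.3 CPM in DMSO 35 d cells (-1.44 ± 0.26, adjusted p = 0.000435), with all inhibited libraries below all DMSO libraries. Actg2 fell by 1.74 on the log2 scale (SE 0.38, adjusted p = 0.00247).

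Mylk was at 328, 262 and 330.2 CPM in KU60019 35 d cells, against 590.3, 794 and 728 CPM in DMSO 35 d cells (-1.20 ± 0.24, adjusted p = 0.00105), so that this kinase was lower with the inhibitor at both times. Myl9 was at 235, 309.7 and 424 CPM in KU60019 35 d cells and 751, 614 and 546 CPM in DMSO 35 d cells (-0.98 ± 0.25, adjusted p = 0.00879). Its call was lost without KU60019 35 d library S16_705 (-0.80, adjusted p = 0.0542). Tagln stood at 714, 953 and 997 CPM in KU60019 35 d cells and 1753.2, 1752.9 and 1372.5 CPM in DMSO 35 d cells (-0.87 ± 0.29, adjusted p = 0.0415), but the call was lost without any 1 of the 6 libraries (adjusted p from 0.0617 to 0.140). Acta1 (-1.33 ± 0.64, adjusted p = 0.158), Actc1 (-0.44 ± 0.79, adjusted p = 0.736) and Tpm1 (-0.31 ± 0.16, adjusted p = 0.191) did not pass. On TPM, where the median of all genes shifted by -0.33, Acta1 and Tpm1 were called lower as well.

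Of the 20 other smooth muscle cytoskeleton genes none rose and 11 fell, among them Lmod1, an actin nucleator (-1.60 ± 0.24), Csrp1 (-1.07 ± 0.15) and Flna, a filamin (-1.35 ± 0.17). Of the SRF list 4 of 11 tested fell, including Srf itself (-1.09 ± 0.15) and its cofactor Mrtfa (-1.30 ± 0.20). Of the cytoplasmic actin list 6 of 11 fell, such as Actg1 (-0.59 ± 0.15) and Myh10 (-1.15 ± 0.20), of the RhoA list 1 of 13, and of the matrix list 2 rose and 1, Fn1, fell (-1.10 ± 0.27). Mitochondrial transcripts took 5.08% to 6.61% of the counts of KU60019 35 d libraries and 1.61% to 1.73% of those of DMSO 35 d libraries. The fibroblast markers (2 higher, 5 lower) summed to 15382.3 to 16080.1 CPM in KU60019 35 d cells and 35517.6 to 42329.6 CPM in DMSO 35 d cells, the macrophage markers to 56.7 to 78.1 CPM in KU60019 35 d cells and 18.4 to 29.6 CPM in DMSO 35 d cells. The Schwann cell markers, of which 4 of 7 rose, summed to 25.96 to 116 CPM in KU60019 35 d cells and 13.6 to 14.3 CPM in DMSO 35 d cells. Mural markers (1 higher, 2 lower) summed to 434 to 465 CPM in KU60019 35 d cells and 673 to 736 CPM in DMSO 35 d cells, and mesothelial markers (2 higher) to 10.2 to 20.1 CPM in KU60019 35 d cells and 4.61 to 5.89 CPM in DMSO 35 d cells. The epithelial and endothelial sums were also apart, at 2.46 to 4.41 and 158 to 171 CPM in KU60019 35 d cells and 1.39 to 1.90 and 144 to 151 CPM in DMSO 35 d cells. Most of the endothelial sum was Eng, with means of 147.9 CPM in KU60019 35 d and 127.7 CPM in DMSO 35 d cells. Of the 10 endothelial markers 2 were called higher and 0 lower. Krt19, in the epithelial and mesothelial lists, averaged 2.71 CPM in KU60019 35 d and 1.43 CPM in DMSO 35 d cells. The part of these values in the result was not tested.

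The KU60019 effect itself differed between 35 d and 15 d for 8 of the 10 genes, all lower at 35 d, where 7.11% of all genes had a higher and 4.58% a lower effect. The difference of the log2 fold changes was -5.07 ± 0.93 for Acta1, -3.44 ± 0.53 for Cnn1, -3.25 ± 0.53 for Actg2, -2.73 ± 0.36 for Acta2, -2.69 ± 0.42 for Myh11, -2.42 ± 0.42 for Tagln, -1.90 ± 0.36 for Myl9 and -0.84 ± 0.22 for Tpm1. Mylk showed no called difference (-0.15 ± 0.33, adjusted p = 0.858). That of Tpm1 was lost without library S1_705, S13_705 or S16_705 (adjusted p from 0.0519 to 0.0551).

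The vehicle cultures were also compared between the times. Between DMSO 35 d and DMSO 15 d none of the 10 genes passed, with 0.455% of all genes higher and 1.11% lower, none had an unadjusted p below 0.05, and DESeq2 called none. Acta2 was at 2397.4 ± 320.3 CPM in DMSO 35 d cells and 1863.2 ± 374 CPM in DMSO 15 d cells (SD, n = 3). Cell type markers did differ: 7 of 10 endothelial markers were lower at DMSO 35 d and 0 higher, with a median log2 fold change of -4.47. Of 8 macrophage markers tested 5 were lower and 0 higher, with a median of -4.13. The part of these markers in comparisons with DMSO 15 d was not tested. Between KU60019 35 d and KU60019 15 d, 9 genes fell and none rose, where 13.6% of all genes rose and 11.6% fell. Acta2 fell to 882 ± 259 CPM in KU60019 35 d cells, against 4533.1 ± 581 CPM in KU60019 15 d cells (-2.36 ± 0.27, adjusted p = 1.55e-06), and Acta1 to 6.32 ± 5.11 CPM in KU60019 35 d cells, against 152 ± 51.8 CPM in KU60019 15 d cells (-4.58 ± 0.71, adjusted p = 6.58e-05). The exception was Mylk (0.23 ± 0.23, adjusted p = 0.519). The call of Actc1 (-2.38 ± 0.73, adjusted p = 0.0188) was lost without KU60019 15 d library S5_715 or KU60019 35 d library S16_705 or S18_716 (adjusted p from 0.0616 to 0.0853).

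The next comparison took cells off the inhibitor after 15 d and harvested them 20 d later. None of the 10 genes was higher and 4 were lower than in cells taken off DMSO, where 24.7% of all genes rose and 24% fell, and the median log2 fold change was -0.77 over the 10 genes.

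Myh11 was at 124, 68.99 and 81.5 CPM in KU60019 15 d then removed cells, against 505, 579 and 482 CPM in DMSO 15 d then removed cells (-2.51 ± 0.31, adjusted p = 1.53e-05). Mylk was at 479, 183 and 258 CPM in KU60019 15 d then removed cells and 943, 979 and 795 CPM in DMSO 15 d then removed cells (-1.56 ± 0.24, adjusted p = 0.000104). For both genes every library off the inhibitor lay below every library off DMSO. Tagln stood at 1987.9, 595 and 1195.3 CPM in KU60019 15 d then removed cells, with a wide spread, and 2508.6, 2853.1 and 2521.4 CPM in DMSO 15 d then removed cells (-1.06 ± 0.29, adjusted p = 0.00567); it was not called when only those groups were fitted (-1.04, adjusted p = 0.0723). Cnn1 (-0.95 ± 0.36, adjusted p = 0.0364) lost its call without any 1 of 5 of the 6 libraries (adjusted p from 0.0547 to 0.130).

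Acta2 was at 3269.9, 2521.7 and 2292.0 CPM in KU60019 15 d then removed cells and 3789.9, 4352.4 and 3509.3 CPM in DMSO 15 d then removed cells, apart in range but not called (-0.53 ± 0.25, adjusted p = 0.0883). Acta1 had -0.32 ± 0.62, adjusted p = 0.689, Myl9 -0.17 ± 0.25, adjusted p = 0.585 and Tpm1 -0.34 ± 0.16, adjusted p = 0.0829. The scaling mattered here: on TPM, with the median of all genes shifted by -0.47, 8 genes were called lower. Acta2 (-1.11, adjusted p = 0.000599), Actg2, Myl9 and Tpm1 were among them. On counts without KU60019 15 d then removed library S10_705 there were 7. The shares of all genes called in these settings are not given here, so these counts have no background. Without the 4 libraries above 0.4% ribosomal RNA in the whole fit, S7_705 among them, the 4 calls on counts held, with Myh11 at -2.54, adjusted p = 0.000168 and Cnn1 at -1.002, adjusted p = 0.0249.

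Within the inhibited arm, 5 genes were lower after removal and none higher, where 21.3% of all genes rose and 19% fell. They were Acta1 (-3.11 ± 0.66, adjusted p = 0.00100), Tagln (-1.53 ± 0.30, adjusted p = 0.000446), Myh11 (-1.08 ± 0.29, adjusted p = 0.00616), Acta2 (-0.75 ± 0.25, adjusted p = 0.0226) and Actc1 (-2.34 ± 0.75, adjusted p = 0.0172). Those of Acta2 and Actc1 were lost without any 1 of 4 and of 3 libraries (adjusted p up to 0.0844 and 0.0822), and 3 calls were left in all without KU60019 15 d library S5_715 or KU60019 15 d then removed library S11_715 or S12_716. Within the vehicle arm 7 genes rose and none fell, where 3.78% of all genes rose and 3.24% fell. Myh11 rose most (1.87 ± 0.30, adjusted p = 0.000334), then Cnn1 (1.66 ± 0.37, adjusted p = 0.00649) and Actg2 (1.31 ± 0.37, adjusted p = 0.0321), and Mylk did not pass (0.74 ± 0.23, adjusted p = 0.0569). Without DMSO 15 d library S1_705 or DMSO 15 d then removed library S8_715 only 3 calls were left. In this vehicle comparison 7 of 10 endothelial markers were lower after removal and 1 higher. Of 8 macrophage markers tested 6 were lower and 0 higher, and of 6 Schwann cell markers tested 3 were lower and 1 higher. The part of these markers in the result was not tested.

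The KU60019 effect after removal differed from that at 15 d for 8 genes, all lower after removal, where 14% of all genes had a higher and 11.4% a lower effect. The differences ran from -4.07 ± 0.90 for Acta1 to -0.87 ± 0.22 for Tpm1, with -1.81 ± 0.36 for Acta2 and -2.95 ± 0.42 for Myh11, and Mylk was not called (-0.51 ± 0.33, adjusted p = 0.257). That of Myl9 (-1.09 ± 0.35, adjusted p = 0.0286) was lost without any 1 of 5 libraries (adjusted p from 0.0525 to 0.0706).

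Other lists were counted in the same comparison. Of the other smooth muscle cytoskeleton genes 14 of 20 fell and none rose, among them Synpo2 (-1.33 ± 0.18) and Kcnmb1, a potassium channel subunit of smooth muscle (-2.52 ± 0.40). Of the SRF list 2 rose and 3 fell, with Mrtfa lower (-0.95 ± 0.20) and Mef2c higher (1.32 ± 0.21). Of the cytoplasmic actin list 2 rose and 2 fell, of the RhoA list 1 rose and 6 fell, and of the matrix list 6 of 12 fell, such as Fn1 (-1.44 ± 0.27). Mural cell markers, of which 1 of 9 rose and 5 fell, summed to 489 to 706 CPM in KU60019 15 d then removed cells and 766 to 881 CPM in DMSO 15 d then removed cells. Fibroblast markers (1 higher, 6 lower) summed to 21299.9 to 25687.4 CPM in KU60019 15 d then removed cells and 45907.5 to 51995.2 CPM in DMSO 15 d then removed cells. Schwann cell markers (5 of 7 higher) summed to 18.1 to 79.7 CPM with KU60019 removed and 16.8 to 17.9 CPM with DMSO removed. Striated muscle markers, of which 9 of 14 tested rose and none fell, summed to 71.3 to 132 CPM with KU60019 removed and 40.3 to 43.8 CPM with DMSO removed. Their part in the result was not tested.

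**Figure D3:**
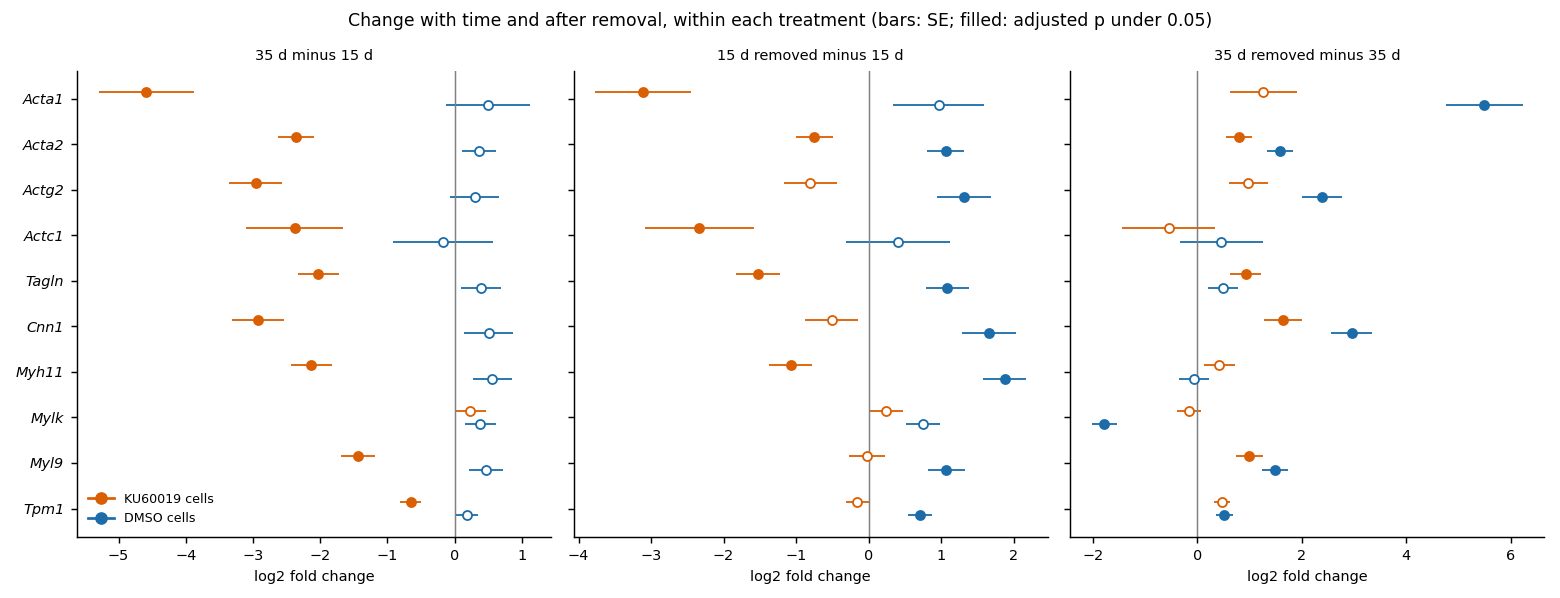
Log2 fold change of each of the 10 genes (x axis, bars: approximate SE, filled points: adjusted p below 0.05) within KU60019 cells and within DMSO cells, for 35 d against 15 d and for removal against the end of either schedule. KU60019 cells lie below 0 for most genes at 35 d against 15 d, and after removal at 35 d DMSO cells lie above 0 for Acta1 (5.50) and below 0 for Mylk (-1.78).

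The vehicle libraries harvested 20 d after the 35 d schedule stood apart: they include S19_705 and S20_715 with the raised ribosomal RNA given above, and S19_705 has the lowest TMM factor of the 27, so the members' fold changes that rest on them are given with and without the libraries above 0.4% ribosomal RNA, and those of other lists with all libraries only. Against these libraries 6 of the 10 genes fell and none rose in cells taken off KU60019, where 24.4% of all genes rose and 24.5% fell, and the median log2 fold change was -1.62 over the 10 genes.

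Acta1 was at 7.83, 28.1 and 9.83 CPM in KU60019 35 d then removed cells, against 1240.0, 552 and 367 CPM in DMSO 35 d then removed cells (-5.56 ± 0.74, adjusted p = 2.22e-06). Without the libraries above 0.4% ribosomal RNA, which leaves 1 DMSO 35 d then removed library assumed to vary like the other groups, it was -4.56, adjusted p = 0.000242. Cnn1 was at 86.1, 129 and 152 CPM in KU60019 35 d then removed cells and 2466.1, 975 and 797 CPM in DMSO 35 d then removed cells (-3.53 ± 0.40, adjusted p = 2.23e-07, and -2.67, adjusted p = 5.93e-05 without those libraries). Library S19_705 held the highest value of its group in both. Acta2 was at 1223.2, 1608.1 and 1773.4 CPM in KU60019 35 d then removed cells and 10757.0, 5523.1 and 5298.0 CPM in DMSO 35 d then removed cells (-2.23 ± 0.26, adjusted p = 4.43e-07, and -1.75, adjusted p = 0.000187 without them).

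Actg2 had -3.15 ± 0.40, adjusted p = 1.04e-06, and -2.44, adjusted p = 0.000286 without the libraries. Myl9 had -1.48 ± 0.26, adjusted p = 5.77e-05, and -0.997, adjusted p = 0.0154 without them. Myh11, with 42.02, 65.9 and 69.2 CPM in KU60019 35 d then removed cells and 214, 164 and 225 CPM in DMSO 35 d then removed cells, had -1.77 ± 0.30, adjusted p = 4.31e-05, and -1.89, adjusted p = 0.00147 without them. All 6 calls thus held. Tagln (-0.44 ± 0.29, adjusted p = 0.215), Tpm1 (-0.35 ± 0.16, adjusted p = 0.0721), Actc1 (-1.45 ± 0.89, adjusted p = 0.183) and Mylk (0.42 ± 0.23, adjusted p = 0.141) did not pass, and Mylk was called higher on TPM (0.88, adjusted p = 0.0217) and by library size alone (0.72, adjusted p = 0.0206), scalings that shifted the median of all genes by 0.32 and 0.29.

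In the vehicle arm itself, 6 genes were higher after removal than at DMSO 35 d and 1 was lower, where 31.5% of all genes rose and 32.6% fell. They were Acta1 (5.50 ± 0.74, adjusted p = 2.01e-06; 4.50, adjusted p = 0.000264 without the libraries above 0.4% ribosomal RNA, as are the second values that follow), Cnn1 (2.96 ± 0.39, adjusted p = 1.51e-06; 2.11, adjusted p = 0.000613), Actg2 (2.39 ± 0.38; 1.69, adjusted p = 0.00568), Acta2 (1.59 ± 0.26; 1.12, adjusted p = 0.00764), Myl9 (1.49 ± 0.26; 1.02, adjusted p = 0.0113) and Tpm1 (0.52 ± 0.16, adjusted p = 0.00730). Mylk was lower, at 204, 192 and 219 CPM in DMSO 35 d then removed cells and 590.3, 794 and 728 CPM in DMSO 35 d cells (-1.78 ± 0.24, adjusted p = 2.08e-06; -1.71, adjusted p = 0.00251 without those libraries). The call of Tpm1 was lost without them (0.42), which leaves 1 DMSO 35 d then removed library. It held without S19_705 alone (0.45, adjusted p = 0.0299). The direction of Tpm1 turned on TPM (-0.32, adjusted p = 0.113), where the median of all genes shifted by -0.67. Tagln was called without library S19_705 (0.72, adjusted p = 0.0441). Fibroblast markers (3 higher, 7 lower) summed to 14598.5 to 17176.2 CPM in DMSO 35 d then removed cells and 35517.6 to 42329.6 CPM in DMSO 35 d cells. Mural markers (1 higher, 6 lower) summed to 395 to 420.0 CPM after removal and 673 to 736 CPM at DMSO 35 d, and macrophage markers (1 lower) to 10.3 to 12.3 CPM after removal and 18.4 to 29.6 CPM at DMSO 35 d. Mesothelial markers (3 higher, 1 lower) summed to 26.5 to 84.96 CPM after removal and 4.61 to 5.89 CPM at DMSO 35 d. Epithelial markers (2 higher) summed to 24.3 to 71.6 CPM after removal and 1.39 to 1.90 CPM at DMSO 35 d. Most of both sums after removal was Krt19, which is in both lists and averaged 40.3 CPM there and 1.43 CPM at DMSO 35 d. Striated muscle markers (4 higher, 2 lower) summed to 57.95 to 113 CPM after removal and 31.7 to 42.9 CPM at DMSO 35 d. Their part in the result was not tested.

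In the inhibited arm 4 genes were higher after removal and none lower, where 5.77% of all genes rose and 6.82% fell: Cnn1 (1.64 ± 0.37, adjusted p = 0.00731), Myl9 (0.999 ± 0.25, adjusted p = 0.0140), Tagln (0.92 ± 0.29, adjusted p = 0.0424) and Acta2 (0.80 ± 0.25, adjusted p = 0.0424). With the replicate number as a block shared by all 9 groups, Acta2 was not called (0.80, adjusted p = 0.0524). Of these calls, 0 were left without KU60019 35 d library S16_705, 1 without S17_715, 2 without KU60019 35 d then removed library S23_715 and 1 without S24_716. The effect after removal differed from that at 35 d for 3 genes, 1 higher and 2 lower, where 15.8% of all genes had a higher and 16.6% a lower effect. They were Mylk (1.62 ± 0.33, adjusted p = 0.000861), Acta1 (-4.24 ± 0.91, adjusted p = 0.00138) and Actg2 (-1.42 ± 0.52, adjusted p = 0.0410). Without the libraries above 0.4% ribosomal RNA, Mylk had 1.54, adjusted p = 0.0259, Acta1 -3.26, adjusted p = 0.0368 and Actg2, no longer called, -0.73, adjusted p = 0.435. On TPM, where the median of all genes shifted by 0.66, 4 genes had a higher and 1 a lower effect after removal. The share of all genes called there is not given here. The call of Actg2 was lost without any 1 of 8 libraries (adjusted p from 0.0550 to 0.206), and 5 genes were called without KU60019 35 d library S16_705 or DMSO 35 d then removed library S21_716.

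Of the other smooth muscle cytoskeleton genes 2 rose and 9 fell against the DMSO 35 d then removed libraries, among them Tpm2, a beta-tropomyosin (-2.58 ± 0.28), and Smtn, smoothelin (-1.53 ± 0.21). Of the SRF list 5 fell, with Srf at -0.83 ± 0.15, of the cytoplasmic actin list 1 rose and 7 fell, with Actg1 at -1.21 ± 0.15, and of the RhoA list 2 rose and 5 fell. Of the matrix list 7 rose and 1 fell, with Tgfb2 at 2.40 ± 0.22 and Lox, a collagen crosslinking enzyme, at 1.25 ± 0.24. Epithelial markers summed to 3.37 to 5.12 CPM in KU60019 35 d then removed cells and 24.3 to 71.6 CPM in DMSO 35 d then removed cells, fibroblast markers (3 higher, 6 lower) to 10076.7 to 12642.0 CPM with KU60019 removed and 14598.5 to 17176.2 CPM with DMSO removed, and macrophage markers (3 higher) to 67.4 to 97.5 CPM with KU60019 removed and 10.3 to 12.3 CPM with DMSO removed. Mesothelial markers (1 higher, 1 lower) summed to 9.11 to 16.1 CPM with KU60019 removed and 26.5 to 84.96 CPM with DMSO removed. Krt19, in this list and in the epithelial one, averaged 3.49 CPM with KU60019 removed and 40.3 CPM with DMSO removed. Their part in the result was not tested.

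Irradiated cells were compared with DMSO 15 d cells. In IR cells 8 of the 10 genes rose and none fell, where 14.1% of all genes rose and 16.8% fell, and the median log2 fold change was 1.95 over the 10 genes. The ranges of the 8 genes were apart, and here too the share of all genes apart was not counted.

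Tpm1 was at 3988.6, 4563.3 and 4400.4 CPM in IR cells, against 1414.0, 1507.1 and 1626.5 CPM in DMSO 15 d cells (1.51 ± 0.16, adjusted p = 6.12e-07). Acta2 was at 6288.8, 7476.5 and 7186.5 CPM in IR cells and 1519.5, 1808.1 and 2261.8 CPM in DMSO 15 d cells (1.91 ± 0.26, adjusted p = 1.18e-05), and Tagln at 5086.8, 6521.9 and 5815.6 CPM in IR cells and 1016.7, 1074.4 and 1626.4 CPM in DMSO 15 d cells (2.23 ± 0.30, adjusted p = 1.13e-05). All 3 irradiated libraries lay above all 3 DMSO libraries for each of these genes. Cnn1 (2.69 ± 0.38, adjusted p = 1.94e-05), Actg2 (2.12 ± 0.38, adjusted p = 0.000224), Myl9 (1.998 ± 0.26, adjusted p = 6.05e-06) and Myh11 (1.52 ± 0.29, adjusted p = 0.000481) rose as well. Mylk was at 621, 689 and 767 CPM in IR cells and 607, 389.9 and 627 CPM in DMSO 15 d cells (0.36 ± 0.23, adjusted p = 0.261). Acta1 stood at 23.9, 69.9 and 56.6 CPM in IR cells (2.14 ± 0.64, adjusted p = 0.0141), and its call was lost without DMSO 15 d library S1_705 or IR library S26_715 (adjusted p = 0.0738 and 0.0619) and with DMSO 35 d as the control (1.65, adjusted p = 0.0550). Without the 4 libraries above 0.4% ribosomal RNA, S27_716 among them, all 8 calls held, with Acta1 at 2.06, adjusted p = 0.0296.

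Of the other smooth muscle cytoskeleton genes 15 of 20 rose and 1 fell, among them Lmod1 (1.68 ± 0.24) and Cald1 (1.22 ± 0.17). Of the cytoplasmic actin list 7 rose and 1 fell, with Actg1 at 1.06 ± 0.15, of the SRF list 2 rose and 1 fell, of the RhoA list 2 rose and 2 fell, and of the matrix list 8 rose and 2 fell, with Ccn2 at 3.39 ± 0.29. Fibroblast markers (1 higher, 6 lower) summed to 13696.6 to 19643.2 CPM in IR cells and 28911.5 to 42080.6 CPM in DMSO 15 d cells. Endothelial markers (1 higher, 7 lower) summed to 151 to 181 CPM in IR cells and 139.9 to 227 CPM in DMSO 15 d cells. Most of the endothelial sum was Eng, with means of 130.8 CPM in IR and 119.2 CPM in DMSO 15 d cells. The median log2 fold change of the 10 endothelial markers was -2.45. Pecam1 averaged 1.55 CPM in IR and 11.2 CPM in DMSO 15 d cells. Their part in the result was not tested.

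The balance between the genes also varied, given here as a level per 100 TPM of a partner gene. Mylk per 100 TPM of Myl9, its substrate gene, was 3.84 to 5.07 in KU60019 15 d cells, 5.00 to 5.89 in IR cells and 11.6 to 22.4 in DMSO 15 d cells. At 35 d it was 11.2 to 20.1 in KU60019 cells and 11.3 to 19.2 in DMSO cells. After removal at 15 d it was 2.75 to 7.39 in KU60019 cells and 12.8 to 14.4 in DMSO cells, and after removal at 35 d 4.94 to 7.39 in KU60019 cells and 1.10 to 2.40 in DMSO cells. Acta1 per 100 TPM of Acta2 was 2.93 to 4.71 in KU60019 15 d cells and 8.54 to 14.2 in DMSO 35 d then removed cells, and between 0.304 and 2.16 in the other 7 groups. Tagln per 100 TPM of Acta2 was 105 to 137 in KU60019 35 d cells and 72.4 to 80.9 in DMSO 35 d cells, and 108 to 149 in KU60019 35 d then removed cells and 15.7 to 61.8 in DMSO 35 d then removed cells. The ratios are descriptions, and no test was made of them. The Spearman correlation of CPM with gene length, averaged per group, also differed. It was 0.095 in DMSO 15 d, 0.1125 in DMSO 15 d then removed and 0.099 in DMSO 35 d cells. For KU60019 it was 0.007 at 15 d, -0.011 at 15 d then removed, 0.024 at 35 d and -0.031 at 35 d then removed. In DMSO 35 d then removed cells it was -0.046, and in IR cells 0.026. Single libraries differed within groups, with 0.142, 0.0015 and 0.141 in DMSO 15 d and 0.036, 0.135 and 0.126 in DMSO 35 d cells. KU60019 15 d libraries ran from -0.0014 to 0.0123. The part of this correlation in the ratios was not tested.

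**Figure D4:**
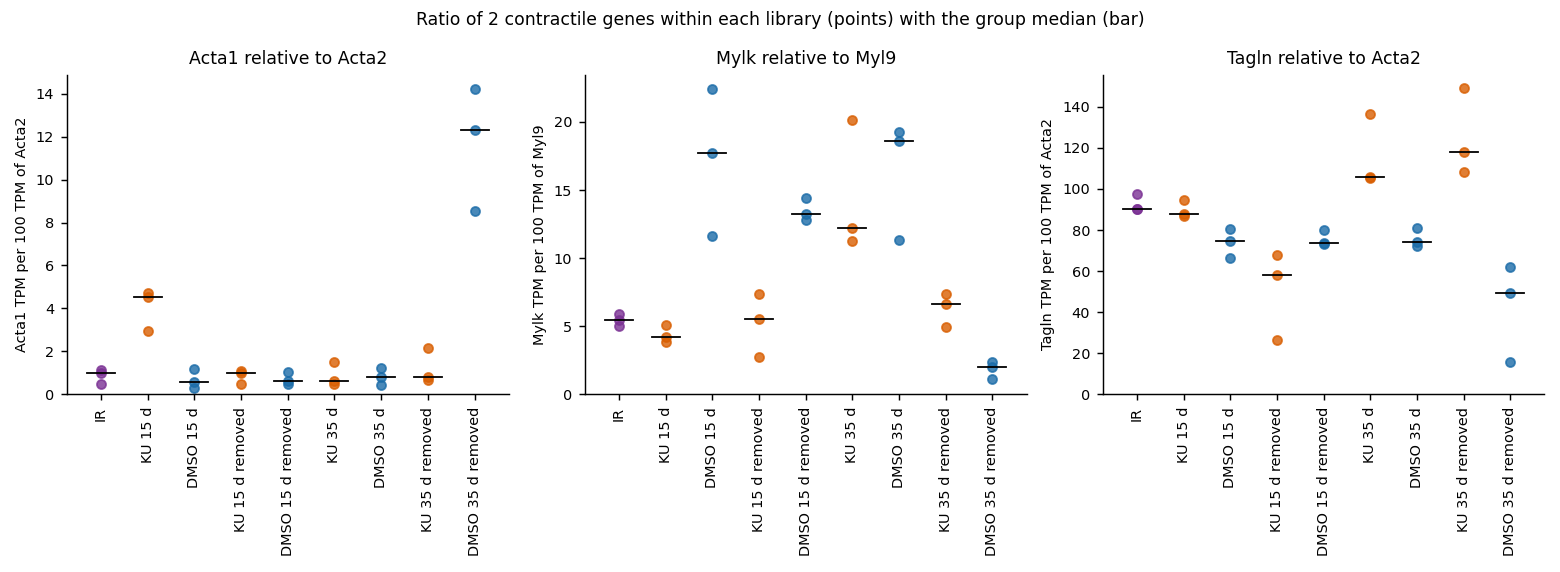
Acta1 and Tagln per 100 TPM of Acta2 and Mylk per 100 TPM of Myl9, with 1 point per library of the 9 groups and a bar at the group median (KU stands for KU60019). The Mylk to Myl9 ratio is lowest in DMSO 35 d then removed, and the Acta1 to Acta2 ratio is highest there.

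Across the 27 libraries Acta2, Actg2, Cnn1 and Myl9 followed each other closely, and Actc1 and Mylk did so less. Pearson's r on log2(CPM + 1) was 0.99 for Acta2 and Actg2, 0.98 for Actg2 and Cnn1, 0.97 for Acta2 and Cnn1 and 0.96 for Cnn1 and Myl9. For Actc1 it ran from 0.06 with Mylk to 0.65 with Tagln, and for Mylk from -0.37 with Acta1 to 0.63 with Myh11. The libraries share groups and differ in depth, so these values are descriptions.

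**Figure D5:**
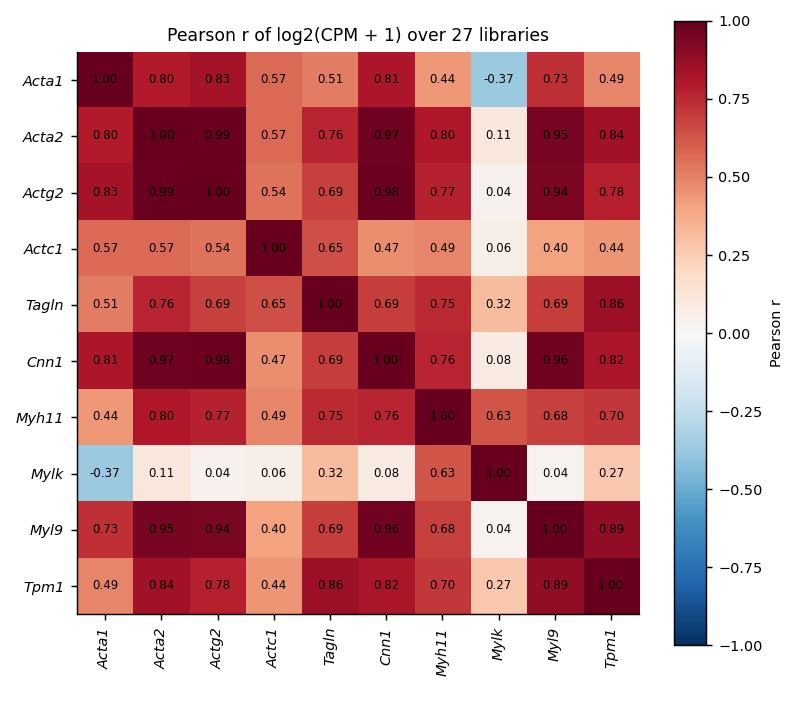
Pearson's r between members over 27 libraries on log2(CPM + 1). Acta2, Actg2, Cnn1 and Myl9 form a block of high values, and Mylk has low values with most members.

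Among 11383 genes of at least 5 CPM, the genes whose means over the 9 groups were most like those of Acta2, other than members, were Ccdc6 (r = 0.9966), Dbn1, an actin-binding protein (0.9625), Cfap43 (0.9468), Itga5, a fibronectin receptor subunit (0.9466), and Mbnl2 (0.9454). Of the members, Actg2 had r = 0.9946, Cnn1 0.9754 and Mylk 0.107 with Acta2. Those most like Acta1 were Ywhah (0.9899), Cfl1, the actin-severing cofilin (0.9853), Cyp4f16 (0.9786), Nup62 (0.9778) and Capn2 (0.9756). Each r is over 9 group means of log2(CPM + 1), so the groups at either end of the range can weigh heavily.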

How the data were processed

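Total RNA of 27 libraries (TruSeq) was sequenced. The authors deposited a table of counts per gene; the submitters' processing notes name featureCounts and mm10. For the aligner, versions, annotation release and strand setting, nothing is given in the sources used here. The authors also deposited TPM per gene (48082 genes, against 48440 in the count table) and a TPM table of 15372 expressed genes whose values equal those of the first. Symbols were found for 48058 IDs, and 40606 versioned IDs (83.8%) occur in GENCODE M21. The 10 genes and the lists were chosen with earlier results of these data known. Named genes of a list were at most the 3 with the lowest adjusted p of those called, and some of these are not reported here.

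Counts were fitted with edgeR 4.0.16 (R 4.3.3): TMM factors, filterByExpr with a minimum count of 10, 1 model of 9 group means over all 27 libraries, the robust quasi-likelihood test, and Benjamini-Hochberg adjustment over 18684 genes (threshold 0.05). The standard error is the size of the log2 fold change divided by the root of F, an approximation. Differences between effects were contrasts of the same fit. Intervals and p-values cover the spread between libraries only. Alternatives were DESeq2 1.42.0, RLE factors, library size alone, no filter, the replicate block, only the compared groups, limma 3.58.1 on log2(TPM + 1) and log2(TPM + 0.1), a gene length correction, another control for IR, each library left out, and, chosen after seeing the data, the libraries above 0.4% ribosomal RNA left out and level ratios without S19_705. Whether the numbers at the end of library names pair libraries was checked by the correlation of deviations from group means. Every pair exceeded 0.1 in KU60019 15 d against DMSO 15 d (0.41 to 0.52), KU60019 15 d then removed against KU60019 15 d (0.12 to 0.20) and KU60019 35 d then removed against KU60019 35 d (0.20 to 0.62), so the numbers were taken to pair these. The main p-values of these comparisons come from the fit without the block. The block is an effect per number shared by all 9 groups, so no comparison was fitted with its own pairs. The fit was tested on simulated data.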

Additional observations from a re-analysis of the deposited data

Results flagged for a closer look

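For 8 genes the difference between the KU60019 effect at 35 d and at 15 d was tested and passed: -5.07 for Acta1, -2.73 for Acta2, -3.25 for Actg2, -2.42 for Tagln, -3.44 for Cnn1, -2.69 for Myh11, -1.90 for Myl9 and -0.84 for Tpm1 (log2).

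The difference between the effect after removal and at 15 d was tested and passed for the same number of genes: -4.07 for Acta1, -1.81 for Acta2, -2.12 for Actg2, -2.61 for Tagln, -2.17 for Cnn1, -2.95 for Myh11, -1.09 for Myl9 and -0.87 for Tpm1.

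The difference between the effect after removal and at 35 d was tested and passed for Acta1 (-4.24), Actg2 (-1.42) and Mylk (1.62). Of all genes, 15.8% had a higher and 16.6% a lower effect. These contrasts share libraries, and all 3 values rest on the DMSO 35 d then removed libraries: Mylk changed by -1.78 in the vehicle arm and -0.16 in the inhibited arm. Without the libraries above 0.4% ribosomal RNA, Actg2 was not called (-0.73, adjusted p = 0.435).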

How the results depend on the processing

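Of 2334 recomputed values of single genes, 2123 kept their direction and side of the threshold, 106 lost it, 65 gained it, 36 moved and 4 reversed. The reversed ones were all Tpm1 on TPM: 0.79 (TPM + 1) and 0.79 (TPM + 0.1) for the effect after removal minus that at 35 d, and -0.32 and -0.32 for DMSO 35 d then removed against DMSO 35 d. On TPM with either pseudocount, 8 genes were called for KU60019 15 d then removed against its DMSO cells. For the effect after removal minus that at 35 d, 5 were called. Shares of all genes called on TPM are not given here. On that scale the Mylk ratio of highest to lowest group was 7.48. Without the filter, 2 genes were called for KU60019 35 d then removed against KU60019 35 d. The cause was not tested.

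With each library left out, calls ranged from 5 to 10 for KU60019 15 d against DMSO, 5 to 7 at 35 d, 3 to 7 after removal at 15 d, 6 to 6 after removal at 35 d, 7 to 8 for IR, 0 to 0 for DMSO 35 d against 15 d and 8 to 9 for KU60019 35 d against 15 d. They ranged from 7 to 8 for the effect at 35 d minus that at 15 d, 7 to 10 and 2 to 5 for the effects after removal minus those at 15 d and 35 d, 3 to 5 and 0 to 4 within the inhibited arm at 15 d and 35 d, and 3 to 7 and 7 to 8 within the vehicle arm. With the replicate block, where the numbers were not taken as paired, Mylk was called for DMSO 15 d then removed against DMSO 15 d (0.76, 8 genes in all); of 6 libraries 2 correlated best with their own number. Besides that and Acta2 as given, the block changed no call. Actc1, with 0 to 56 counts a library, is limited by depth.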
